A study of Mus musculus with 6 samples.

Results

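The antioxidant, NRF2 and ferroptosis genes of the mouse liver were compared at the end of ischemia and reperfusion (I/R), with and without ginsenoside Rk2. They are 37 of the 15454 genes in the count table, chosen by gene name, and all 37 had enough counts to be tested. The livers came from male C57BL/6 mice aged 8 to 10 weeks in which warm ischemia of 75% of the liver was followed by reperfusion. The I/R group held 3 liver samples after vehicle, and the I/R+Rk2 group held 3 after ginsenoside Rk2, a saponin of ginseng. Either solution was given 2 days before surgery and again when perfusion began, and the text of the study places its sequenced Rk2 livers in the higher of its dose groups, which the labels do not state. All 6 livers were injured, so every comparison is between injured livers, and sham-operated mice were not analysed here. The labels number the samples 1 to 3 in each group and do not say that they are separate mice, so the p-values measure the spread between these samples.

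Oxidative stress in a reperfused liver is met by several connected systems. NRF2, encoded by Nfe2l2, is held down by KEAP1 in resting cells, and when it is released it binds antioxidant response elements together with small MAF proteins and drives genes for glutathione synthesis, the thioredoxin system and NADPH supply. Superoxide dismutases turn superoxide into hydrogen peroxide, which catalase, glutathione peroxidases and peroxiredoxins remove. Glutathione is made from cysteine, which the SLC7A11 transporter helps to supply as cystine, and GPX4 uses glutathione to reduce the phospholipid peroxides whose build-up leads to ferroptosis, an iron-dependent form of cell death.

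Libraries held 16809613 to 35618074 counts, and 3 counts stood for 0.0888 to 0.184 counts per 1000000 (CPM). The library sizes behind CPM were normalised with TMM (trimmed mean of M values), and the factors ran from 1.01 to 1.14 in I/R and from 0.914 to 0.975 in I/R+Rk2. A gene was called when its edgeR p-value, adjusted over the 12411 genes tested, was below 0.05. Hepatocyte markers were present in every library, with a sum over 10 markers of 85026 to 95373 CPM in I/R and 118781 to 141344 CPM in I/R+Rk2. In bulk tissue, fewer cells of a type and less RNA per cell cannot be told apart.

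The upstream sequences of 5 members are shown, with 4 genes that were lower and 1 that was higher in I/R+Rk2. They were picked among members whose run holds the core described here, so they are not a sample of all members. Each run holds the 250 bases before a RefSeq transcript start (GRCm38.p6), read 5′ to 3′ on the strand of the gene. Capitals mark a core of the antioxidant response element, spelled TGACNNNGC or TGAGNNNGC and searched on both strands.
Srxn1 (chr2:152105274-152105523, plus strand): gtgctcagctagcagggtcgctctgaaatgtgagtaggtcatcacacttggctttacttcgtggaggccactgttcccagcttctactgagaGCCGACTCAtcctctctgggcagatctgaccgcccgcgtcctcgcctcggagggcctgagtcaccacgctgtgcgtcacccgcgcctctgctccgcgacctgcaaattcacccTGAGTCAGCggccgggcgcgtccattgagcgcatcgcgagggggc
Slc7a11 (chr3:50443614-50443863, minus strand): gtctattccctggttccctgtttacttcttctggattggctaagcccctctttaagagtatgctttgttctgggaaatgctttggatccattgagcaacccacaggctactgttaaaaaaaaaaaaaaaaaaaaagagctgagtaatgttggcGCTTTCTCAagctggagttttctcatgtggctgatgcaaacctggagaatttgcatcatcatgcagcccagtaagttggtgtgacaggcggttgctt
Txnrd1 (chr10:82858956-82859205, plus strand): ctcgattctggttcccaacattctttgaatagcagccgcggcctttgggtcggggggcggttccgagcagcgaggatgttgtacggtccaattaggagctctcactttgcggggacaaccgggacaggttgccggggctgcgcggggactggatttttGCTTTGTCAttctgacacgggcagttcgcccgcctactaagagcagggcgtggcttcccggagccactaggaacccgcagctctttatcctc
Nfe2l2 (chr2:75704664-75704913, minus strand): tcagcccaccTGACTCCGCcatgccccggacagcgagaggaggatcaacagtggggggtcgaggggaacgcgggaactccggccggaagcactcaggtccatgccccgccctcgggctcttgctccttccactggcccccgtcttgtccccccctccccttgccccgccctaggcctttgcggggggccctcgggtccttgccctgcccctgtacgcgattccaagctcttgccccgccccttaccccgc
Sod1 (chr16:90220512-90220761, plus strand): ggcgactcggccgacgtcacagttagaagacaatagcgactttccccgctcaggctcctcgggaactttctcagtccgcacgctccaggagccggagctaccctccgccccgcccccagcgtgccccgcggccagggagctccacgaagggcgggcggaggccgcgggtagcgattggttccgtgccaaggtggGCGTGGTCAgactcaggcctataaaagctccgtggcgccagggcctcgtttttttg
Srxn1 held 2 matches in this run, at -158 and -45 counted from the start, while Slc7a11, Txnrd1, Nfe2l2 and Sod1 held 1 match each, at -97, -92, -240 and -56. The match at -45 of Srxn1 overlapped an AP-1 site (TGANTCA), and a further match of Srxn1 lies after the start, outside this run. The Txnrd1 run belongs to 1 of its 3 RefSeq starts, and the windows of its other starts held no match.

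Over the window from 250 bases before to 50 bases after the start, the core stood in 13 of the 33 members with a RefSeq window. It stood in 5 of 7 members called lower, in 1 of 11 called higher and in 7 of 15 not called. By comparison, 35.3% of the 9574 tested genes with a window and 27.8% of all 32851 windows held it, so the core is a common sequence. A match describes letters in the window and is not a measured NRF2 site, and no NRF2 binding was measured in these livers.

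Of the 37 members, 12 (32.4%) were called higher in I/R+Rk2, against a background of 20.3% of all genes tested. A further 9 members (24.3%) were called lower, against a background of 23.7%, and 16 were not called. In all, 21 members (56.8%) were called, against 43.9% of all genes tested. Of the lower members, 5 (13.5% of 37) passed a 2-fold change (Srxn1, Slc7a11, Gpx1, Gclc and Txnrd1), and no higher member did. These shares lie near the background, since 11.4% of all genes tested were called lower and 3.17% higher with a 2-fold change. In 24 members (64.9%) the CPM of the groups did not overlap, against 57.4% of all genes tested. The median log2 fold change (I/R+Rk2 over I/R) was 0.12 over the members and -0.01 over all genes tested. With library size alone, which moved the median of all genes to -0.17, 7 members were called higher and 11 lower. In that fit, 1320 of all 12411 genes tested were called higher and 3481 lower. A limma fit used log2(FPKM + 1) for genes with a mean FPKM of at least 1 (FPKM, fragments per kilobase of transcript and 1000000 mapped fragments). There the median of all genes was -0.12, and 6 members were called higher and 11 lower. Of all 9914 genes in the limma fit, 1172 were called higher and 2670 lower.

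**Figure D1:**
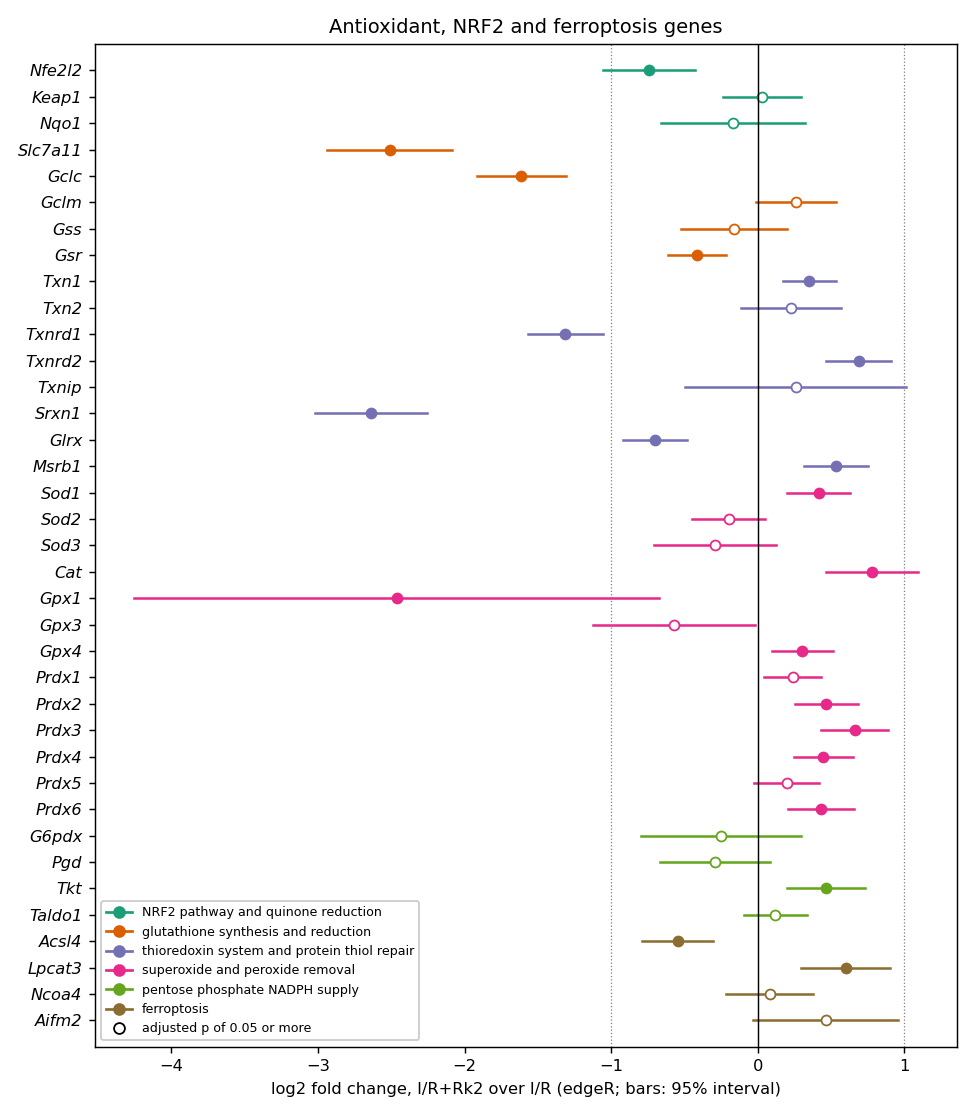
Log2 fold change (I/R+Rk2 over I/R) of the 37 members on the x axis, one gene per line and coloured by role, with bars for the 95% interval of the edgeR fit. Filled points were called (edgeR adjusted p below 0.05), dotted lines mark a 2-fold change, and Srxn1, Slc7a11, Gpx1, Gclc and Txnrd1 lie beyond the lower one while no gene lies beyond the upper one.

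Nfe2l2 itself was lower in I/R+Rk2. Its level was 70.7, 86.7 and 85.5 CPM in I/R replicates 1 to 3 and 53.8, 50.4 and 40.7 CPM in I/R+Rk2 replicates 1 to 3. Every I/R liver lay above every I/R+Rk2 liver, and the mean went from 80.96 ± 8.87 to 48.3 ± 6.77 CPM (SD, n = 3; log2 fold change -0.74, standard error 0.13, adjusted p = 0.00471 in edgeR). Keap1, the adaptor that targets NRF2 for degradation, had 36.6, 33.8 and 31.5 CPM in I/R and 30.7, 34.5 and 38.7 CPM in I/R+Rk2. These ranges overlapped, with a log2 fold change of 0.03 (95% interval -0.24 to 0.29, adjusted p of 0.857 in edgeR). Nqo1, a quinone reductase and a classical NRF2 target, was expressed at a low level of 6.15, 7.45 and 5.62 CPM in I/R and 4.58, 7.19 and 5.22 CPM in I/R+Rk2. It was not called, with a log2 fold change of -0.17 (95% interval -0.66 to 0.32, adjusted p of 0.537 in edgeR).

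In glutathione synthesis, cystine import and the catalytic subunit of the first enzyme were lower, while the modifier subunit and the second enzyme were not called. Of 5 members, 3 were called lower and none higher, against backgrounds of 23.7% and 20.3% of all genes tested, and the median log2 fold change was -0.42. Slc7a11 (chromosome 3, 49892526 to 50443614, minus strand), the cystine and glutamate exchanger, was at 14.5, 12.1 and 16.5 CPM in I/R and 2.98, 2.25 and 2.33 CPM in I/R+Rk2, from 279, 310 and 415 counts against 71, 76 and 38. The lowest I/R liver was far above the highest I/R+Rk2 liver, and the level was 5.70-fold lower (log2 fold change -2.51, standard error 0.18, adjusted p = 0.000265 in edgeR). Per length it was the lowest of the 37 members in both groups, from 1.77 ± 0.412 to 0.268 ± 0.0479 FPKM. On the log2(FPKM + 1) scale its fall was -1.12, since the value added is of the size of the level itself.

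Gclc (chromosome 9, 77754535 to 77794485, plus strand), the catalytic subunit of glutamate-cysteine ligase, had 1249, 1334 and 1023 CPM in I/R and 360.0, 397 and 422 CPM in I/R+Rk2. The groups were well apart, 3.06-fold lower in the fit (log2 fold change -1.61, standard error 0.13, adjusted p = 0.000366 in edgeR). Gclm, the modifier subunit of the same enzyme, had 98.01, 76.9 and 78.7 CPM in I/R and 94.3, 102 and 108 CPM in I/R+Rk2. It was not called (log2 fold change 0.26, 95% interval -0.01 to 0.53, adjusted p of 0.109 in edgeR), and I/R replicate 1 lay within the range of the I/R+Rk2 livers. Without that liver Gclm was called higher, with a log2 fold change of 0.39 (adjusted p of 0.0328 in edgeR), and it was also called with the transcript length trend removed (0.46, adjusted p of 0.012 in edgeR). The ratio of Gclc to Gclm in FPKM was 10.3, 11.6 and 9.69 in I/R against 2.64, 2.94 and 2.97 in I/R+Rk2. These ratios were a mean of 10.5 ± 0.955 against 2.85 ± 0.184 (SD, n = 3), a log2 difference of -1.88 without overlap. The two-sided exact permutation p was 0.1, the smallest that 3 livers against 3 allow, and 0.1 after adjustment over the 3 ratios computed here. Gclc was called lower and Gclm was not, so the ratio is not evidence apart from those members.

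Gss, which adds glycine to complete glutathione, had 60.9, 46.3 and 53.1 CPM in I/R and 50.4, 38.9 and 54.1 CPM in I/R+Rk2 and was not called (log2 fold change -0.16, 95% interval -0.52 to 0.20, adjusted p of 0.422 in edgeR). Its exons overlap those of Acss2 on the other strand, and the strand setting of the counting was not given in the sources used here. Gsr, the reductase that regenerates glutathione from its oxidised form, was at 133, 134 and 129.8 CPM in I/R and 107, 97.96 and 92.6 CPM in I/R+Rk2. Its I/R values lay close together and above all I/R+Rk2 values, a smaller fall than those of Slc7a11 and Gclc (log2 fold change -0.42, standard error 0.08, adjusted p = 0.00719 in edgeR).

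**Figure D2:**
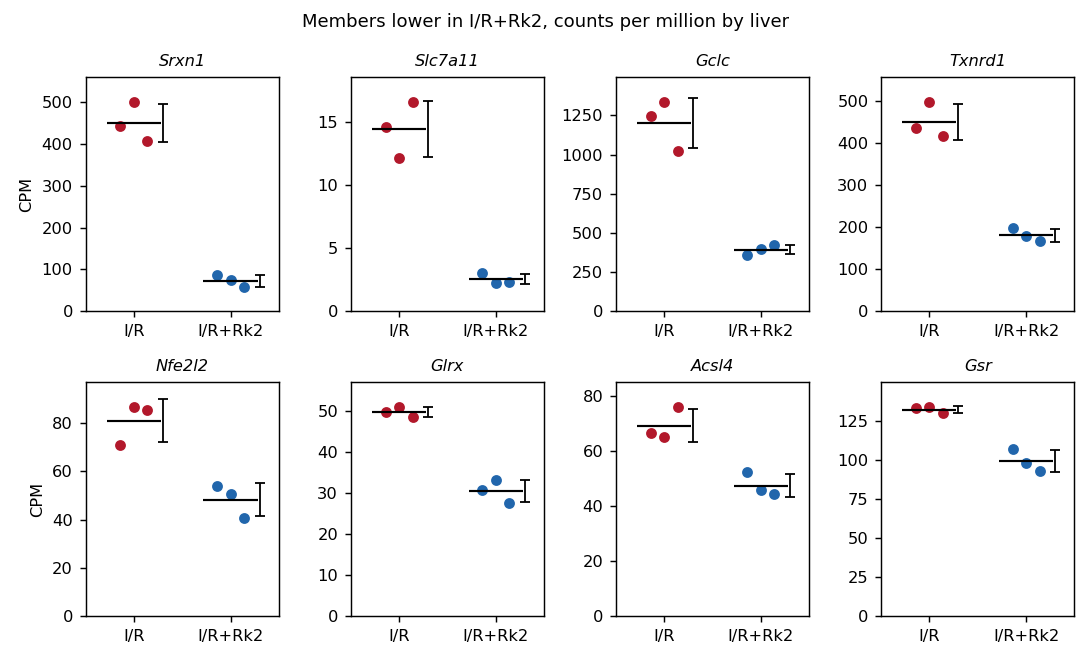
CPM on the y axis of the 8 members that were called lower and whose groups did not overlap, one panel a gene, with I/R in red and I/R+Rk2 in blue. Points are single livers, lines are means and bars are the SD of 3 livers; the I/R+Rk2 points of Srxn1 lie between 58.0 and 85.6 CPM, under I/R points of 408 to 500.3 CPM.

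In the thioredoxin system, the cytosolic reductase and the repair enzymes for peroxiredoxins and glutathionylated proteins were lower, while thioredoxin itself, the mitochondrial reductase and a methionine sulfoxide reductase were higher. Of 8 members, 3 were called higher, 3 lower and 2 neither way (backgrounds 20.3% and 23.7%), with a median log2 fold change of 0.24. Srxn1 (chromosome 2, 152105516 to 152111376, plus strand), the sulfiredoxin that restores over-oxidised peroxiredoxins, had 444, 500.3 and 408 CPM in I/R and 85.6, 73.6 and 57.97 CPM in I/R+Rk2. This was the largest fall of the 37 members, 6.22-fold, with every I/R liver several times above every I/R+Rk2 liver (log2 fold change -2.64, standard error 0.16, adjusted p = 0.00024 in edgeR). Of the 12411 genes tested, 2.18% had a log2 fold change as low or lower. Txnrd1 (chromosome 10, 82833951 to 82897712, plus strand), the cytosolic thioredoxin reductase and a selenoprotein, was at 434, 496 and 416 CPM in I/R and 197, 177 and 167 CPM in I/R+Rk2, 2.48-fold lower with no overlap (log2 fold change -1.31, standard error 0.11, adjusted p = 0.000379 in edgeR). Glrx, the glutaredoxin that removes glutathione from protein thiols, had 49.7, 50.97 and 48.6 CPM in I/R and 30.8, 33.1 and 27.6 CPM in I/R+Rk2. Here too the groups were apart, by less (log2 fold change -0.70, standard error 0.09, adjusted p = 0.00161 in edgeR).

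Txnrd2, the mitochondrial thioredoxin reductase, moved the other way from Txnrd1. It had 15.9, 15.9 and 15.9 CPM in I/R and 25.3, 27.5 and 23.9 CPM in I/R+Rk2, so that the I/R livers were almost equal and all I/R+Rk2 livers were higher (log2 fold change 0.69, standard error 0.10, adjusted p = 0.00188 in edgeR). The ratio of Txnrd1 to Txnrd2 in FPKM was 11.2, 13.6 and 11.5 in I/R against 3.12, 2.80 and 3.31 in I/R+Rk2, 12.1 ± 1.31 against 3.07 ± 0.259 (SD, n = 3). This is a log2 difference of -1.97 without overlap, again at the smallest exact permutation p of 0.1 (0.1 after adjustment). Both members were apart in FPKM in opposite directions, so this outcome followed from them and is no further evidence. Txn1, cytosolic thioredoxin, was at 179, 165 and 179.6 CPM in I/R and 225, 226 and 218 CPM in I/R+Rk2, higher in each I/R+Rk2 liver than in any I/R liver (log2 fold change 0.35, standard error 0.08, adjusted p = 0.00996 in edgeR). Its call was lost under 6 of 18 alternatives, among them library size alone (log2 fold change 0.19, adjusted p of 0.193 in edgeR) and removal of the transcript length trend (0.11, adjusted p of 0.281 in edgeR). Msrb1, a selenoprotein that repairs oxidised methionine, had 209.9, 198 and 235 CPM in I/R and 322, 300.2 and 309.7 CPM in I/R+Rk2. The groups were apart, and the rise was called in every alternative (log2 fold change 0.54, standard error 0.09, adjusted p = 0.00417 in edgeR).

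Txn2, mitochondrial thioredoxin, and Txnip, the thioredoxin-interacting protein that binds and inhibits thioredoxin, were not called. Txn2 had 74.2, 76.8 and 55.97 CPM in I/R and 70.9, 88.9 and 81.8 CPM in I/R+Rk2 (log2 fold change 0.22, 95% interval -0.12 to 0.56, adjusted p of 0.247 in edgeR). Txnip had 99.8, 85.7 and 107 CPM in I/R and 177, 107 and 65.3 CPM in I/R+Rk2. The I/R+Rk2 livers thus stood on both sides of the I/R livers, and the 95% interval of the log2 fold change (0.26, adjusted p of 0.543 in edgeR) was wide, -0.50 to 1.01. The exons of Txnip, Keap1 and Gclm overlap those of Gm15441, Gm16754 and Gm17494 on the other strand, and those of Gclm also overlap Gm6061 on the same strand.

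Among the genes that remove superoxide and peroxide, most of the called members were higher in I/R+Rk2. Of 13 members, 7 were called higher (53.8%, against the background of 20.3%), 1 was called lower and 5 were not called, with a median log2 fold change of 0.30. Cat (chromosome 2, 103453849 to 103485160, minus strand), the peroxisomal catalase, had 1821, 2375 and 2196 CPM in I/R and 3326, 3845 and 3788 CPM in I/R+Rk2. Every I/R+Rk2 liver was above every I/R liver, 1.71-fold in the fit, the largest rise among the 37 members (log2 fold change 0.78, standard error 0.13, adjusted p = 0.00415 in edgeR). Sod1, the cytosolic copper and zinc superoxide dismutase, was at 529, 558 and 608 CPM in I/R and 749, 781 and 729 CPM in I/R+Rk2, also without overlap (log2 fold change 0.42, standard error 0.09, adjusted p = 0.0102 in edgeR). Its call was lost with library size alone and in the 3 fits on FPKM, with edgeR or limma adjusted p from 0.0628 to 0.0764.

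The other dismutases were not called. Sod2, the mitochondrial manganese enzyme, had 186, 232 and 214 CPM in I/R and 178, 198 and 176 CPM in I/R+Rk2 (log2 fold change -0.20, 95% interval -0.45 to 0.05, adjusted p of 0.169 in edgeR). It was called lower in 4 of 18 alternatives, library size alone (-0.35, adjusted p of 0.0279 in edgeR) and the 3 fits on FPKM (limma adjusted p from 0.0278 to 0.0286). With the transcript length trend removed, its log2 fold change was 0.00783 (adjusted p of 0.967 in edgeR). Sod3, the extracellular enzyme, had 13.9, 18.1 and 17.5 CPM in I/R and 14.4, 10.6 and 15.6 CPM in I/R+Rk2 (log2 fold change -0.29, 95% interval -0.71 to 0.12, adjusted p of 0.216 in edgeR). Both had overlapping groups.

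The 6 peroxiredoxins, thiol peroxidases of the cytosol, mitochondria and endoplasmic reticulum, all had higher CPM in each I/R+Rk2 liver than in any I/R liver (57.4% of all genes tested did not overlap), and 4 of the 6 were called higher (background 20.3%), but in FPKM, Prdx5 had the opposite sign (log2 fold change -0.02). The FPKM of Prdx1 overlapped between the groups too, at 346.7, 316.4 and 320.2 in I/R and 351.5, 347.5 and 319.8 in I/R+Rk2. Prdx3, the mitochondrial form, showed the largest rise of the family, with 85.1, 100.4 and 90.7 CPM in I/R and 155, 147 and 134 CPM in I/R+Rk2 (log2 fold change 0.66, standard error 0.10, adjusted p = 0.00243 in edgeR). Prdx2, a cytosolic form that is abundant in red cells, had 61.5, 67.4 and 66.8 CPM in I/R and 82.3, 94.97 and 93.5 CPM in I/R+Rk2 (log2 fold change 0.47, standard error 0.09, adjusted p = 0.0064 in edgeR), and its exons overlap those of Junb and Rnaseh2a on the other strand. Prdx4, the form of the endoplasmic reticulum, had 67.9, 76.02 and 78.1 CPM in I/R and 102, 103 and 97.1 CPM in I/R+Rk2 (log2 fold change 0.45, standard error 0.09, adjusted p = 0.00613 in edgeR). The groups of all 3 were clearly apart.

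Prdx6, which also acts on phospholipid peroxides, was at 341, 348 and 376 CPM in I/R and 468, 523 and 443 CPM in I/R+Rk2 (log2 fold change 0.43, standard error 0.10, adjusted p = 0.011 in edgeR). Prdx1, a cytosolic form and an NRF2 target, had 711, 729.6 and 748 CPM in I/R and 872, 881 and 829 CPM in I/R+Rk2. Although its groups did not overlap in CPM, it missed the threshold (log2 fold change 0.24, standard error 0.08, adjusted p = 0.0511 in edgeR, 95% interval 0.04 to 0.43). Prdx1 passed it in DESeq2 (log2 fold change 0.25, adjusted p = 0.0103) and with upper quartile scaling (0.29, adjusted p of 0.0262 in edgeR). In the other 16 of 18 alternatives it was not called, among them library size alone (0.08, adjusted p of 0.563 in edgeR) and removal of the transcript length trend (0.16, adjusted p of 0.17 in edgeR). Prdx5, found in mitochondria, peroxisomes and the cytosol, had 143, 166 and 159 CPM in I/R and 168, 192 and 176 CPM in I/R+Rk2 and was not called (log2 fold change 0.20, 95% interval -0.03 to 0.42, adjusted p of 0.132 in edgeR). The exons of Prdx5 overlap those of Trmt112 on the other strand. Some calls in the family depended on the setting, since that of Prdx2 was lost in the 3 fits on FPKM, that of Prdx4 with the transcript length trend removed (adjusted p of 0.0808 in edgeR), and that of Prdx6 with library size alone (adjusted p of 0.0823 in edgeR) and in limma on log2(FPKM + 1) without a filter (adjusted p of 0.0546).

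**Figure D3:**
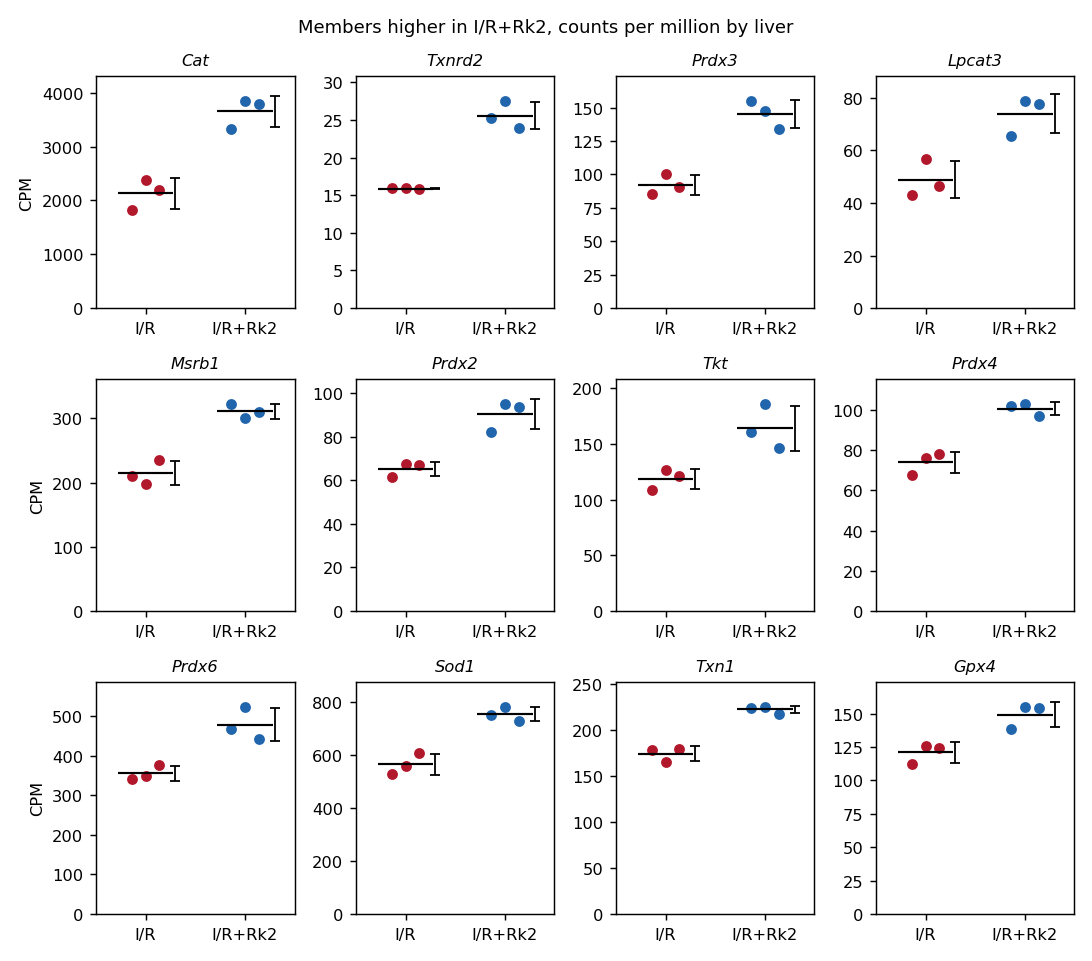
CPM on the y axis of the 12 members called higher, one panel a gene, with I/R in red and I/R+Rk2 in blue. Points are single livers, lines are means and bars are the SD of 3 livers; in all 12 panels the I/R+Rk2 points lie above the I/R points, from 3326 to 3845 against 1821 to 2375 CPM for Cat.

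Markers of other cells moved with these genes. The summed CPM of red cell markers was 1314 to 2533 in I/R and 3271 to 4228 in I/R+Rk2, and 7 of the 7 that were tested were called higher (background 20.3%). Of 10 hepatocyte markers, 6 were called higher (60%, background 20.3%) and 2 lower (20%, background 23.7%). Cat, Sod1 and Prdx2 are abundant in red cells as well as in hepatocytes, and the part of red cell and hepatocyte content in the rises was not tested.

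The glutathione peroxidases differed from each other. Gpx1 (chromosome 9, 108338903 to 108340343, plus strand), the main selenium-dependent peroxidase of the hepatocyte cytosol, had 116, 1284 and 1344 CPM in I/R replicates 1 to 3 and 155, 164 and 179 CPM in I/R+Rk2 replicates 1 to 3. The I/R group was therefore split, with replicate 1 below all I/R+Rk2 livers and replicates 2 and 3 at least 7.16-fold above the other 4 libraries. In FPKM the split was the same, with 129, 1158 and 1205 in I/R and 146, 149 and 162 in I/R+Rk2. The call of Gpx1 as lower (log2 fold change -2.46, standard error 0.76, adjusted p = 0.035 in edgeR) rests on these 2 libraries. When I/R replicate 1 was left out, the log2 fold change came to -2.98 (adjusted p of 0.00136 in edgeR), and it was -2.14 (0.0906) without replicate 2 and -2.09 (0.0971) without replicate 3, both edgeR adjusted p. The call was lost in 10 of 18 alternatives, among them each fit that left out an I/R+Rk2 liver (edgeR adjusted p from 0.0839 to 0.0972). Of 12409 tested gene names, Gpx1 alone had I/R replicates 2 and 3 more than 5-fold above the other 4 libraries, and the cause of this split was not tested.

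Gpx4 (chromosome 10, 80047166 to 80056439, plus strand), the selenoprotein that reduces phospholipid peroxides and guards against ferroptosis, was at 112, 126 and 125 CPM in I/R and 139, 155 and 154 CPM in I/R+Rk2. The groups were apart but near each other, and the rise was small (log2 fold change 0.30, standard error 0.09, adjusted p = 0.0292 in edgeR). Its call was lost in 10 of 18 alternatives, among them those that left out replicate 1 (0.26, adjusted p of 0.0817 in edgeR) or replicate 3 (0.32, 0.0717) of I/R, or replicate 2 (0.27, 0.0921) or replicate 3 (0.29, 0.0733) of I/R+Rk2, and it was 0.06 (adjusted p of 0.635 in edgeR) with the transcript length trend removed. GENCODE M21 lists processed pseudogenes named after Gpx4, Txn1 and Prdx6, and how reads shared with such copies were counted was not given in the sources used here. Gpx3, the secreted plasma form, was at a low 9.80, 9.68 and 9.69 CPM in I/R and 5.55, 4.97 and 9.33 CPM in I/R+Rk2. All I/R+Rk2 livers were lower, replicate 3 only slightly, and Gpx3 was not called (log2 fold change -0.57, 95% interval -1.13 to -0.02, adjusted p of 0.0863 in edgeR). Gpx3 was called lower in 6 of 18 alternatives. Among them were library size alone (log2 fold change -0.74, adjusted p of 0.0354 in edgeR) and the fit without I/R+Rk2 replicate 3 (-0.88, adjusted p of 0.00594 in edgeR).

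**Figure D4:**
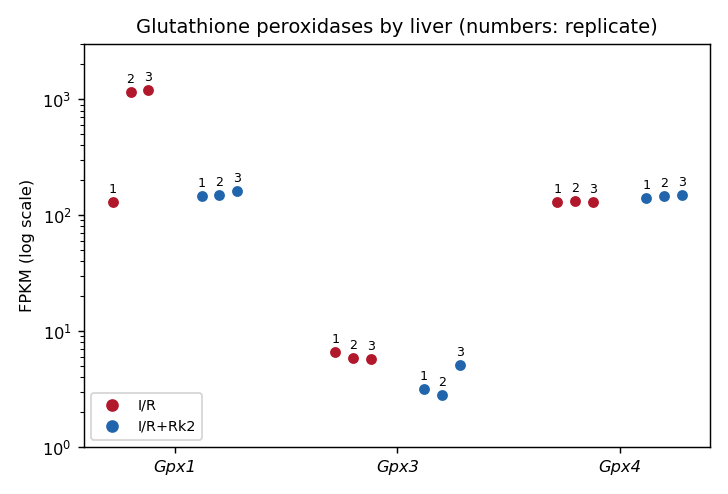
FPKM (log scale) on the y axis of Gpx1, Gpx3 and Gpx4 in each liver, with I/R in red and I/R+Rk2 in blue and the replicate number above each point. For Gpx1, I/R replicates 2 and 3 lie at 1158 and 1205 FPKM while the other 4 livers lie between 129 and 162 FPKM.

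In the pentose phosphate pathway, which supplies the NADPH that glutathione and thioredoxin reductases use, 1 of 4 members was called higher and none lower (backgrounds 20.3% and 23.7%), with a median log2 fold change of -0.07. Tkt, the transketolase of the non-oxidative branch, had 109, 127 and 121 CPM in I/R and 160.2, 186 and 146 CPM in I/R+Rk2. All I/R+Rk2 livers were higher (log2 fold change 0.47, standard error 0.11, adjusted p = 0.0146 in edgeR), and the call was lost with library size alone (0.31, adjusted p of 0.0698 in edgeR) and in the 3 fits on FPKM. The NADPH-forming enzymes G6pdx (10.1, 13.4 and 10.7 CPM in I/R and 9.41, 12.4 and 6.69 CPM in I/R+Rk2) and Pgd (77.4, 89.4 and 76.6 and 68.00, 79.1 and 51.5 CPM) were not called. Their log2 fold changes were -0.25 (95% interval -0.79 to 0.30, adjusted p of 0.414 in edgeR) and -0.29 (95% interval -0.67 to 0.08, adjusted p of 0.175 in edgeR), and the exons of G6pdx overlap those of Ikbkg on the other strand. Taldo1, transaldolase, had 75.9, 86.5 and 83.8 CPM in I/R and 95.7, 83.5 and 88.2 CPM in I/R+Rk2 (log2 fold change 0.12, 95% interval -0.10 to 0.34, adjusted p of 0.327 in edgeR).

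Of the 4 genes assigned to ferroptosis, 1 was called lower, 1 higher and 2 neither way (backgrounds 23.7% and 20.3%). Acsl4, which activates polyunsaturated fatty acids and favours ferroptosis, had 66.4, 65.2 and 75.9 CPM in I/R and 52.2, 45.7 and 44.3 CPM in I/R+Rk2. The groups were apart (log2 fold change -0.55, standard error 0.10, adjusted p = 0.00586 in edgeR). Lpcat3, which places such fatty acids into phospholipids, had 43.1, 56.7 and 46.5 CPM in I/R and 65.4, 78.8 and 77.5 CPM in I/R+Rk2, likewise without overlap but in the opposite direction (log2 fold change 0.60, standard error 0.13, adjusted p = 0.00982 in edgeR). Its call was lost in the 3 fits on FPKM (limma adjusted p from 0.112 to 0.163), and its exons overlap those of Emg1 on the other strand. The ratio of Acsl4 to Lpcat3 in FPKM was 0.525, 0.360 and 0.566 in I/R against 0.310, 0.193 and 0.189 in I/R+Rk2, a log2 difference of -1.08 without overlap (exact permutation p = 0.1, adjusted 0.1). With Acsl4 called lower and Lpcat3 higher, this ratio too is not evidence apart from its members.

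Aifm2, also known as FSP1, which keeps ubiquinone reduced and so limits lipid peroxidation, had 7.51, 12.1 and 11.96 CPM in I/R and 12.2, 15.2 and 16.3 CPM in I/R+Rk2. The highest I/R liver was just below the lowest I/R+Rk2 liver, and the gene was not called (log2 fold change 0.46, 95% interval -0.03 to 0.95, adjusted p of 0.112 in edgeR). Its exons overlap those of H2afy2 on the other strand. Ncoa4, the receptor for autophagy of ferritin, had 85.8, 66.3 and 87.5 CPM in I/R and 91.2, 82.9 and 79.2 CPM in I/R+Rk2 (log2 fold change 0.08, 95% interval -0.21 to 0.38, adjusted p of 0.627 in edgeR). Both groups overlapped for Ncoa4.

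Markers of immune cells fell beside the members called lower. The summed CPM of 13 neutrophil markers was 619 to 756 in I/R and 114 to 258 in I/R+Rk2, with 12 called lower (92.3%, against 23.7% of all genes tested). That of 10 monocyte markers was 1743 to 2094 in I/R and 1171 to 1231 in I/R+Rk2. All 10 were called lower (background 23.7%), 9 of them past 2-fold (background 11.4%). The median log2 fold change of these monocyte markers was -4.34, a larger fall than their sum shows. Kupffer cell markers summed to 118 to 176 CPM in I/R and 85.5 to 104 CPM in I/R+Rk2, with 3 of 12 called lower (25%, near the background of 23.7%). No marker of these 3 lists was at 0 in all I/R+Rk2 libraries. The part of these cells in the falls of Srxn1, Slc7a11, Gclc, Txnrd1, Nfe2l2, Glrx, Gsr and Acsl4 was not tested.

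Compared per length, the order of the members changed. In I/R, Sod1 (866 ± 34.1 to 1036 ± 55.2 FPKM) and Cat (818 ± 64.8 to 1256 ± 69.9 FPKM) were the first and the third of the 37 members by mean FPKM, with the split Gpx1 between them, and the means of Sod1 and Cat in I/R differed by less than the SD of Cat. In I/R+Rk2, Cat came first and Sod1 second. Gclc went from rank 4 (352 ± 56.3 to 103 ± 4.49 FPKM) to rank 11, Srxn1 from rank 10 (164 ± 20.04 to 23.95 ± 5.81 FPKM) to rank 26, and Txnrd1 from rank 12 (128 ± 12.3 to 46.9 ± 5.32 FPKM) to rank 16. Prdx6 (283 ± 14.4 to 349 ± 30.1 FPKM) went from rank 6 to rank 3 and Msrb1 (228 ± 20.3 to 296 ± 14.8 FPKM) from rank 7 to rank 5.

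Grouped by what the members share, 3 of the 6 selenoprotein members (Gpx1, Gpx3, Gpx4, Txnrd1, Txnrd2 and Msrb1) were called higher and 2 lower, against backgrounds of 20.3% and 23.7% of all genes tested, and the calls of Gpx1 and Gpx4 among them were each lost in 10 of 18 alternatives. Of the 4 members whose proteins work mainly in mitochondria (Txn2, Txnrd2, Prdx3 and Sod2), 2 were called higher and none lower, against the same backgrounds, with a median log2 fold change of 0.44.

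**Figure D5:**
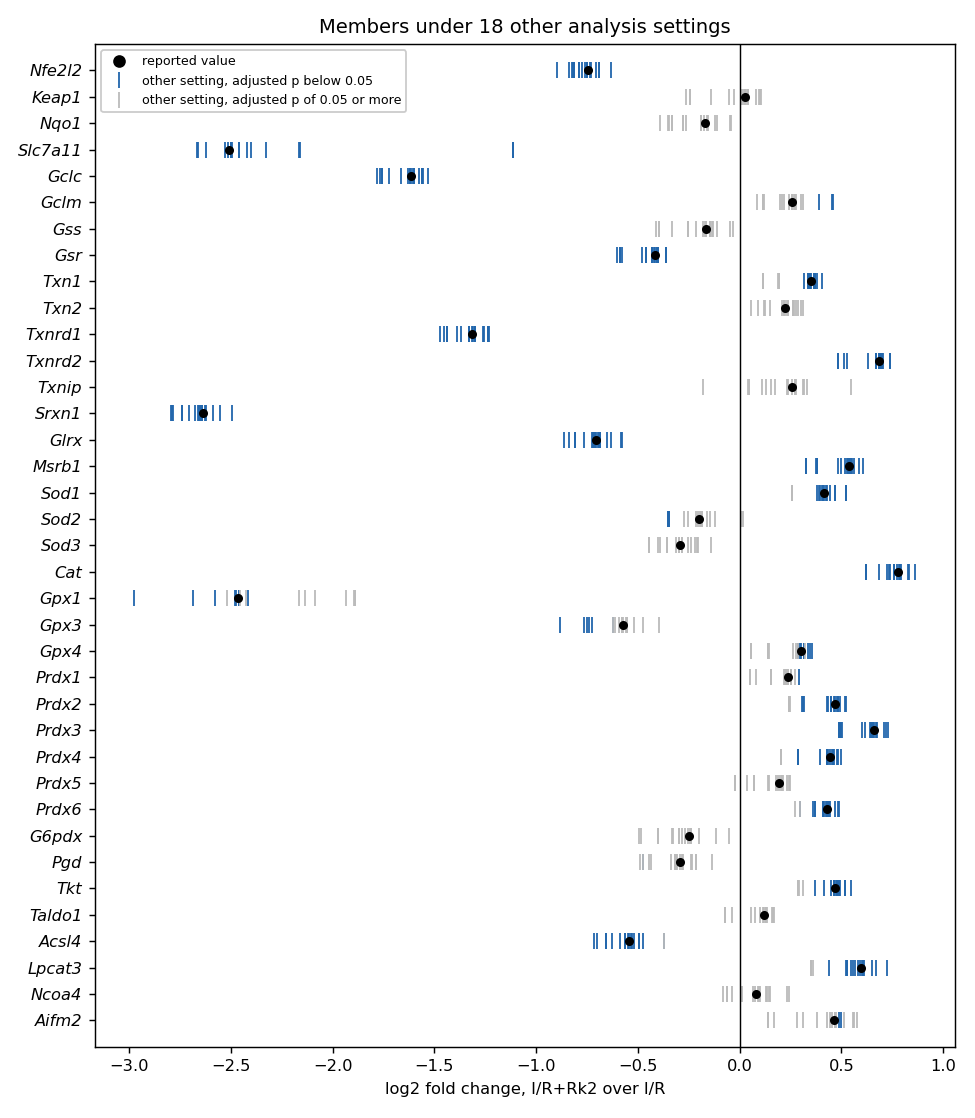
Log2 fold change (I/R+Rk2 over I/R) of the 37 members on the x axis in the reported edgeR fit (black points) and under 18 other analysis settings (ticks, blue where the adjusted p was below 0.05 and grey otherwise). Srxn1, Slc7a11, Gclc, Txnrd1, Nfe2l2, Glrx and Gsr stay called and below 0 throughout, Cat, Prdx3, Txnrd2 and Msrb1 stay called and above 0, and the ticks of Gpx1 run from -2.98 to -1.89 and are in part grey.

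Other genes of the same pathways, 108 of 112 listed that had enough counts, held 42 called higher, 18 called lower and 48 not called, against backgrounds of 20.3% higher and 23.7% lower, with a median log2 fold change of 0.33. Among the partners and repressors of NRF2, 3 of 9 were called lower and 2 higher. Bach1, the heme-regulated repressor that competes with NRF2 for its elements, went from 104 ± 13.7 to 38.1 ± 5.38 CPM (log2 change -1.44 with an adjusted p of 0.000639 in edgeR), and the small MAF partners Maff (log2 change -1.02 with an adjusted p of 0.00102 in edgeR) and Mafk (log2 change -0.58 with an adjusted p of 0.0036 in edgeR) were lower too. Btrc, an adaptor of an ubiquitin ligase that can degrade NRF2, was higher (log2 change 0.75 with an adjusted p of 0.00293 in edgeR).

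Of 19 tested further NRF2 targets, 9 were called higher (47.4%, background 20.3%) and 5 lower (26.3%, background 23.7%), so that known targets went both ways. Hmox1, heme oxygenase 1, went from 293 ± 24.4 to 46.8 ± 6.12 CPM (log2 change -2.65 with an adjusted p of 0.000197 in edgeR), while the glutathione transferase Gstm1 (log2 change 1.05 with an adjusted p of 0.00186 in edgeR), the growth inhibitor Osgin1 (log2 change 1.21 with an adjusted p of 0.00485 in edgeR) and the microsomal transferase Mgst1 (log2 change 0.68 with an adjusted p of 0.00612 in edgeR) were higher. Of 18 other genes of glutathione handling, 8 were called higher (44.4%, background 20.3%) and 2 lower (11.1%, background 23.7%). Slc3a2, the chain that carries SLC7A11 to the membrane, was lower with its partner, from 73.8 ± 4.88 to 31.05 ± 7.52 CPM (log2 change -1.25 with an adjusted p of 0.00173 in edgeR). Of the enzymes that break down glutathione, Chac1 was lower (log2 change -0.999 with an adjusted p of 0.00155 in edgeR) and Chac2 higher (log2 change 1.52 with an adjusted p of 0.000895 in edgeR), and Cbs, which starts the making of cysteine from homocysteine, was higher (log2 change 0.49 with an adjusted p of 0.00316 in edgeR).

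Of 25 other thioredoxin and selenoprotein genes, 10 were called higher (40%, background 20.3%) and 1 lower (4%, background 23.7%). Sephs2, which makes the selenium donor for selenoproteins, went from 397 ± 53.7 to 980.0 ± 159 CPM (log2 change 1.303 with an adjusted p of 0.00121 in edgeR), and Eefsec, the elongation factor for selenocysteine, was higher as well (log2 change 0.63 with an adjusted p of 0.00214 in edgeR). The mitochondrial methionine sulfoxide reductase Msrb2 was higher (log2 change 1.09 with an adjusted p of 0.0012 in edgeR), and the stress-induced sestrin Sesn2 was the one called lower (log2 change -1.28 with an adjusted p of 0.000753 in edgeR). Of 12 other NADPH supply genes, 6 were called higher (50%, background 20.3%) and 3 lower (25%, background 23.7%). Mthfd2, the mitochondrial folate dehydrogenase, was lower (log2 change -1.78 with an adjusted p of 0.00326 in edgeR) and its cytosolic relative Mthfd1 higher (log2 change 0.82 with an adjusted p of 0.00328 in edgeR), as were the mitochondrial NAD kinase Nadk2 (log2 change 0.804 with an adjusted p of 0.00538 in edgeR) and the isocitrate dehydrogenase Idh1 (log2 change 0.56 with an adjusted p of 0.00666 in edgeR).

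Of 25 other genes of ferroptosis and lipid peroxidation, 7 were called higher (28%, background 20.3%) and 4 lower (16%, background 23.7%), with a median log2 fold change of -0.0041. In all, 44% of them were called, against 43.9% of all genes tested. Por, the reductase that passes electrons to cytochrome P450 enzymes and can feed lipid peroxidation, went from 341 ± 17.2 to 111 ± 7.43 CPM (log2 change -1.63 with an adjusted p of 0.000212 in edgeR). Slc39a14, an importer of zinc and iron, went from 609 ± 90.8 to 179 ± 20.4 CPM (log2 change -1.77 with an adjusted p of 0.000373 in edgeR), and Sat1, which acetylates polyamines, was lower too (log2 change -0.94 with an adjusted p of 0.000571 in edgeR). Acsl1, the main long-chain acyl-CoA synthetase of the liver and a relative of Acsl4, went the opposite way, from 261 ± 40.8 to 726 ± 16.7 CPM (log2 change 1.48 with an adjusted p of 0.00042 in edgeR).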

How the data were processed

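RNA of 6 liver samples, 250 ng each, was sequenced. Per the submitters' processing notes and the methods of the study, the authors checked reads with FastQC 0.11.5, aligned them to mm10 with HISAT2 2.2.1 and quantified them with StringTie 1.3.3, and tested genes with DESeq2; which annotation and strand setting they used was not given in the sources used here. They deposited whole-number counts per gene for each library, and FPKM as a second table, which the authors scaled per kilobase and 1000000 mapped fragments.

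The deposited counts were tested in R 4.3.3 with edgeR 4.0.16 (filterByExpr defaults, TMM, quasi-likelihood F test, no covariate, all 6 libraries), with Benjamini-Hochberg adjustment over 12411 genes and a threshold of 0.05. Log2 fold changes have I/R as the denominator. The script was tested on simulated counts. Libraries of one group differed beyond sampling noise (chi-square per degree of freedom 31.4 to 74.8 over genes with at least 20 counts). The intervals printed with the fold changes come from the edgeR quasi-likelihood fit. They include the estimated spread between libraries of a group as well as counting error. FPKM were used for levels between genes, for ratios and, in limma 3.58.1, as an alternative, and DESeq2 1.42.0 was another. Positions and exon overlaps are from GENCODE M21 (GRCm38, the mm10 assembly), and promoter windows are from RefSeq, which matched 33 of 37 members by symbol.

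The members, the role groups and the lists of other pathway genes and markers were chosen with earlier results of these data known. Each of the 3 ratios sets a member called lower over a member not called lower, so it is not evidence apart from those members. Every member is named, with the value in every library where it was called or defines its group; of each list of other genes, up to 4 with the smallest p are named. Marker lists are given as counts and sums, and not used for tests. Markers of endothelial cells (4 of 10 called higher, 3 lower), stellate cells (5 of 10 lower), cholangiocytes (3 of 8 lower) and T and NK cells (1 tested, not called; Trac and Ncr1 not found) were examined as well. The backgrounds for these counts were 20.3% higher and 23.7% lower.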

Additional observations from a re-analysis of the deposited data

How the results depend on the processing

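Of the 21 called members, 11 were called in all 18 alternatives (7 lower and 4 higher), 19 were called in all 6 fits that left out 1 liver (the exceptions were Gpx1 and Gpx4), and none of the 21 changed direction. Across the alternatives the members called lower ran from 8 to 11, those past 2-fold from 4 to 5 and the other pathway genes called from 45 to 64. The members called higher fell to 7 with library size alone and to 6, 6 and 5 in limma on log2(FPKM + 1), on log2(FPKM + 0.1) and on log2(FPKM + 1) without a filter, where the members' median log2 fold change was -0.0374, -0.0620, -0.0639 and -0.0620. Over all genes, 46.1% of calls were higher as reported, against 27.5%, 30.5%, 30.4% and 27.2% in these fits.

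None of the 6 members with a change of sign was called as reported. In the same order of settings, Keap1 was at -0.141, -0.243, -0.263 and -0.243, Taldo1 at -0.0374, -0.0710, -0.0720 and -0.0710, and Ncoa4 at -0.0821, -0.0620, -0.0639 and -0.0620. Prdx5 was at -0.0246, -0.0247 and -0.0246 in the 3 fits on FPKM. With the transcript length trend removed, Sod2 was at 0.00783 and Taldo1 at -0.0701. With 1 liver left out, Keap1 ran from -0.0517 to 0.09995, Txnip from -0.181 to 0.547 and Ncoa4 from -0.0355 to 0.151. The causes were not tested. Log2 fold change and transcript length had a Spearman correlation of -0.221 across 12210 genes, which are not independent.

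Same-numbered livers did not deviate together, with correlations of deviations of -0.0559, 0.00522 and -0.0579. Such correlations cannot settle whether the samples were paired or handled together, and the labels do not say. With the replicate number as a block, 13 members were called higher and 8 lower. Of all 12411 genes tested, 2118 were called higher and 2595 lower in that fit, 4713 in all against 5454. The block gained a call for Aifm2 (log2 fold change 0.49, edgeR adjusted p = 0.0392) and lost that of Gpx1 (-1.93, edgeR adjusted p = 0.116). With the block and the length trend removed together, 11 members were higher and 8 lower, beside 2084 and 2251 of all 12411 genes tested. Aifm2, Gclm and Gpx3 were called there (edgeR adjusted p = 0.0422, 0.0318 and 0.049). The calls of Txn1, Gpx1, Gpx4, Prdx4 and Acsl4 were lost (Acsl4 at -0.37, edgeR adjusted p = 0.0708), and Sod2 was at 0.0161 and Taldo1 at -0.0702. Depth limited Slc7a11 most, with 38 counts in its lowest library.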
